A study of Homo sapiens with 4 samples.

Results

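Transcripts of the mitochondrial ribosomal proteins were examined in the colorectal cancer cell line HT-29 and in the colon epithelial line NCM460, each grown without or with sturgeon chondroitin sulfate (SCS), a sulfated glycosaminoglycan, at 100 μg/mL for 24 h. Members were the protein-coding rows of the deposited gene table whose symbol is MRPL or MRPS followed by a number. The table holds 85 such rows, which belong to 77 genes, 48 named for the large and 29 for the small subunit, among 18650 loci with a value above 0. Below, large and small subunit members are those named so. MRPL45, MRPS18B and MRPS36 are listed more than once, on alternative contigs, and all but 1 row of each hold 0 throughout. The untreated HT-29 and NCM460 cultures were the controls, and no gene was altered in any of the 4 groups. Each condition is 1 library, so no value has a replicate check, and no p-value could be computed for a difference within a line. Intervals are exact 95% counting intervals, which cover counting error only. A member is called higher or lower where its log2 fold change is past 1.5-fold and its counting interval leaves out 0. Because fewer cells of a kind and less RNA per cell give the same values in bulk RNA, they cannot be told apart here.

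The mitochondrial ribosome is a separate translation machine inside mitochondria. It makes the few respiratory chain subunits that the mitochondrial genome encodes. Its RNAs come from the mitochondrial genome, whereas all of its proteins are encoded in the nucleus, made in the cytosol and imported. Many of them descend from bacterial ribosomal proteins and others were added during the evolution of mitochondria. A small subunit reads the mRNA, and a large subunit joins the amino acids.

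The 4 libraries held 1156568 to 1654764 fragments (read pairs assigned to genes), of which 13.8% to 62.3% lay on the mitochondrial genome. That share was 35.8% in the HT-29 control and 13.8% with SCS, and 62.3% in the NCM460 control and 46.3% with SCS, which left 507692 to 1383424 nuclear fragments. Counts were therefore scaled by TMM factors and are given as CPM (fragments on a gene per 1e+06 scaled library fragments). The epithelial keratins KRT8, KRT18 and KRT19 and the adhesion gene EPCAM were detected in all 4 libraries. KRT20, VIL1 and LGALS4 were at 0 in both NCM460 libraries and CDX2 at 0 in both HT-29 libraries. Of the mesenchymal genes looked at, SPARC had 65 and 102 fragments in NCM460 and 0 in HT-29. The others were low or absent: CDH2, COL1A2 and TWIST1 were at 0 throughout. VIM, ZEB1, FN1 and COL1A1 had 0 to 17 fragments in any library. The leukocyte genes PTPRC and CD3E were at 0 throughout. LYZ, a lysozyme gene, had 603 and 352 fragments in HT-29 and 0 in NCM460.

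All 77 members were detected in all 4 libraries, at 1 to 379 fragments each. Per length, members differed widely in level. Among large subunit members, MRPL33, MRPL12 and MRPL24 had the highest mean FPKM (fragments per kilobase of transcript, scaled to library size) over the 4 libraries, at 63.2, 62.1 and 39.9. MRPL33 and MRPL12 lie in loci where the table gives the same values to another gene, BRE and SLC25A10 respectively, so their levels are uncertain. MRPL50, MRPL39 and MRPL1 were lowest at 2.70, 3.20 and 3.93. In the small subunit, MRPS34, MRPS24 and MRPS28 were highest at 64.9, 56.5 and 48.2, the last 2 in loci shared with URGCP and TPD52, and MRPS31, MRPS11 and MRPS14 lowest at 2.66, 4.85 and 5.26. In all, 17 members share a locus with another gene, 10 of the large and 7 of the small subunit. Across the 60 members with a locus of their own, the FPKM ranks of the libraries had a Spearman correlation of 0.76 between the HT-29 libraries, 0.76 between the NCM460 libraries and 0.54 to 0.65 between lines. These are descriptions across genes, which are not independent replicates.

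Some members, 8 in all, were read by 3 fragments or fewer in a library, so their ratios there carry little weight. MRPL1, MRPL32, MRPL35 and MRPS31 had 2 fragments and MRPL50, MRPS14 and MRPS36 had 3 in the NCM460 control, and MRPL39 had 1 in NCM460 with SCS.

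Sequences of some members are given first, for their base composition and their promoters. Transcript base composition moved with the NCM460 comparison, so the last 60 coding bases before the stop codon are shown for 4 members with a locus of their own, with G and C in capitals. They come from GENCODE release 29 transcripts on GRCh38. MRPL3 and MRPL19 had the highest and MRPS18A and MRPS2 the lowest log2 fold changes in NCM460 among such members with at least 30 fragments.
MRPL3, chr3:131462726-131462785, minus strand: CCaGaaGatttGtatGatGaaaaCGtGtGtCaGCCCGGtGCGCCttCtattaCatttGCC
MRPL19, chr2:75655223-75655282, plus strand: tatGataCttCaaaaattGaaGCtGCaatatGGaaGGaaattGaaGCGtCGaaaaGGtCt
MRPS18A, chr6:43671765-43671824, minus strand: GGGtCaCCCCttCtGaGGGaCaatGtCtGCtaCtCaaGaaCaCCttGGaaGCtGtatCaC
MRPS2, chr9:135504071-135504130, plus strand: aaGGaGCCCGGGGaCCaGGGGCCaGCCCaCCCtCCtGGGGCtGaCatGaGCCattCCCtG
G and C made up 28 and 21 of the 60 bases in MRPL3 and MRPL19, and 31 and 42 in MRPS18A and MRPS2. Over the whole transcript the GC content was 42.4%, 38.3%, 57.3% and 61.4% in the same order. Among all 77 members it ran from 35.0% to 71.9% with a median of 48.9%, and the median of all loci was 48.8%.

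The members lie on many chromosomes, and their promoters were searched for short strings that many of them hold. RefSeq windows from 250 bases before to 50 after a start site (GRCh38.p14) were at hand for 68 members. MRPL2, MRPL10, MRPL13, MRPL15, MRPL21, MRPL23, MRPL35, MRPS28 and MRPS36 had none. Letters were searched on both strands, and a gene counts once over all of its windows. The ETS-type letters CCGGAAG, the core bound by GABP (also called NRF2), stood in 29 of 68 members (42.6%), in 19.95% of the 11436 genes of the table that have a window and in 12.2% of all 27305 genes. The longer ACCGGAAG stood in 13.2% of members, 4.36% of the genes of the table and 2.62% of all genes. The letters AAGATGGC, the core of the YY1 motif, stood in 21 members (30.9%), 5.81% of the genes of the table and 3.52% of all genes. In the same order, the longer AAGATGGCG stood in 19.1%, 4.13% and 2.14%. The NRF1-type letters GCGCANGCG stood in 20.6% of members, 15.3% of the genes of the table and 9.02% of all genes. The stricter GCGCATGCG stood in 4.41%, 3.77% and 2.34%. The CRE letters TGACGTCA stood in 1 member (1.47%), 3.48% of the genes of the table and 2.25% of all genes. Each longer or stricter string lies within the matches of the shorter one of its factor, and CCGGAAG and AAGATGGC can share the letters AAG. At least 1 of CCGGAAG, GCGCANGCG and AAGATGGC stood in 49 of 68 members (72.1%) and 35.0% of the genes of the table. A match is a string of letters and not a binding site.

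The 2 frequent strings differed in place. Of 43 CCGGAAG matches over 84 member windows, some of which overlap, 30 began within 100 bases before the start site, whereas 16 of 24 AAGATGGC matches began after it. The 80 bases before the start are shown for 3 of the members with the lowest values in HT-29, with the CCGGAAG letters of either strand in capitals. MRPS22 has several windows, of which 1 is shown.
MRPL27, chr17:50373185-50373264, minus strand: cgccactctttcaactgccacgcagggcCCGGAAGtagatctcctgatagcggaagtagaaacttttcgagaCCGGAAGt
MRPS22, chr3:139343940-139344019, plus strand: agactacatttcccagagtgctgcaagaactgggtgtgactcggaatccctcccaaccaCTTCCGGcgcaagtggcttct
MRPS34, chr16:1773135-1773214, minus strand: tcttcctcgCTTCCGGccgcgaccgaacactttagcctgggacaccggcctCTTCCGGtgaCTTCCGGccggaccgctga
The 30-base windows of 4 members show AAGATGGC in capitals just after the start site.
MRPS10, chr6:42217834-42217863, minus strand: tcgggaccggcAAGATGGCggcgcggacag
MRPL46, chr15:88467362-88467391, minus strand: tgggagaacgaAAGATGGCggcgcccgtaa
MRPS30, chr5:44808949-44808978, plus strand: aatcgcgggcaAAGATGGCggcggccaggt
MRPL42, chr12:93467511-93467540, plus strand: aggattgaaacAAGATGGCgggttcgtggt
In each of the 4 windows the letters begin 9 to 14 bases after the start site. AAGATGGC holds ATG, the letters of a start codon, and whether matches overlap a coding start was not examined. Of the 24 members with a window that were called lower in HT-29, 12 (50.0%) held CCGGAAG and 6 (25%) AAGATGGC. Of the other 44 members, 17 (38.6%) and 15 (34.1%) did. MRPL46 and MRPS11 are head-to-head neighbours on chromosome 15, MRPL46 ending at 88467419 and MRPS11 beginning at 88467453 in the table, so their windows share bases.

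The first comparison asks how the members differed with SCS in HT-29. Transcripts of both subunits stood mostly below their control level with SCS. The median log2 fold change over the 77 members was -0.42 (order-statistic interval -0.56 to -0.21), against 0.07 over the 12168 loci tested, and 58 members were below 0. Of the members, 27 were called lower (35.1%), beside 14.8% of all loci, and 1 was called higher (1.30%), beside 16.8% of all loci. The large subunit had a median of -0.44 with 19 of 48 called lower and 1 higher. The small subunit had a median of -0.29 with 8 of 29 called lower and none higher. MRPS18A and MRPS30, both called lower, are counted in the small subunit by name although structures place them in the large one. No test of the difference between the subunits was made. Members listed as having a bacterial counterpart had 16 of 45 called lower, and the remaining members 11 of 32. MRPS18A and MRPS18B were counted among the remaining members although they are related to bacterial S18. MRPL55, related to bacterial L31, was counted there too, so the split is approximate.

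**Figure D1:**
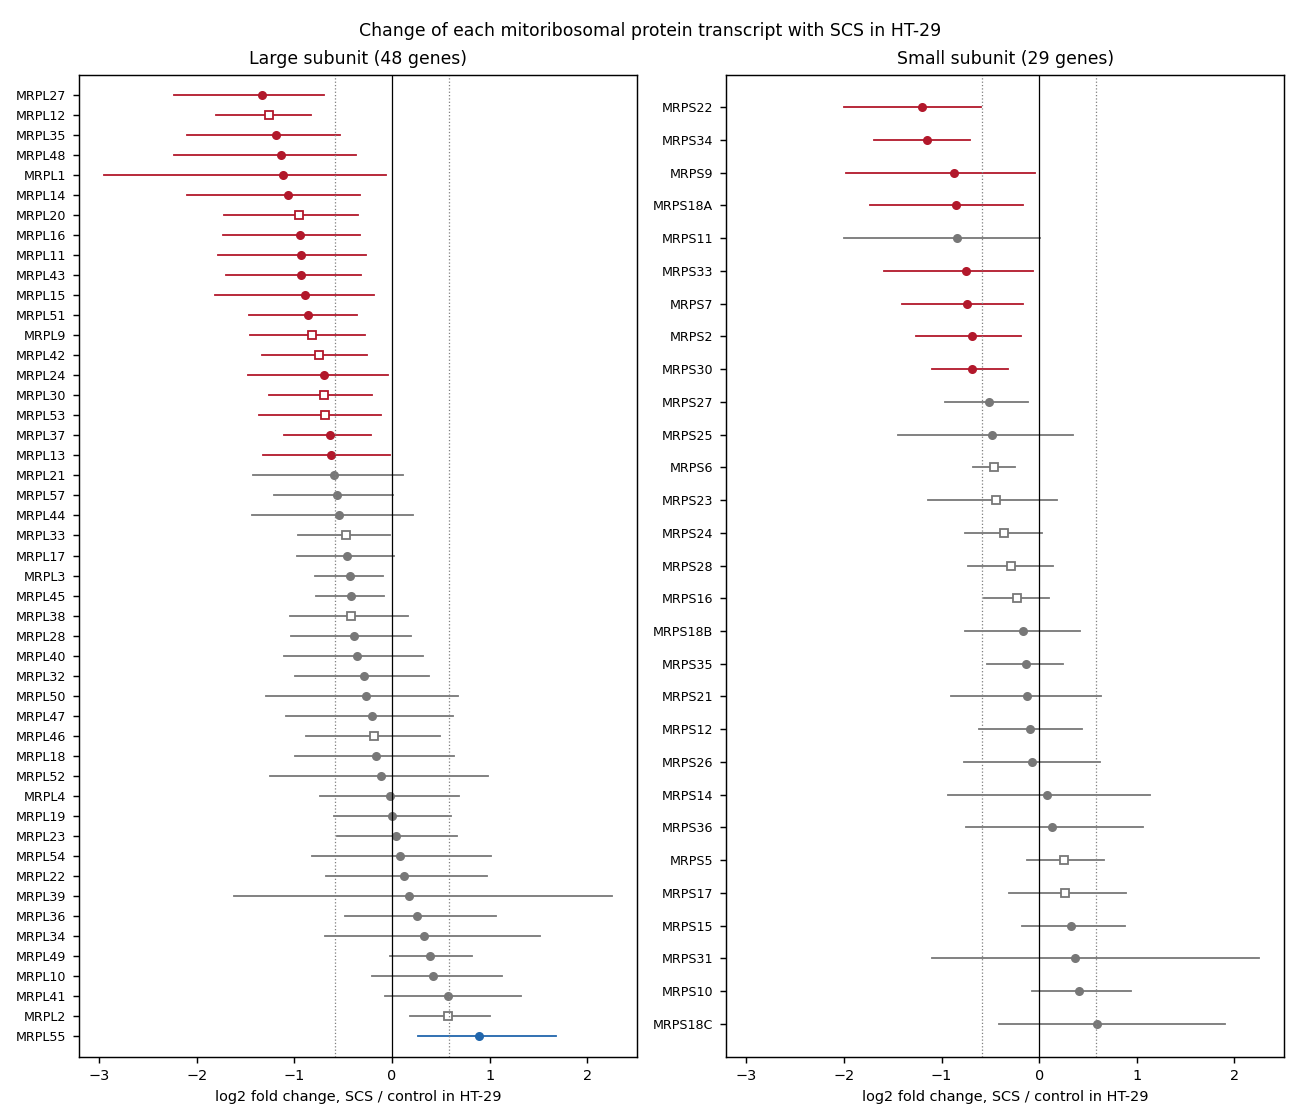
Log2 fold change with SCS in HT-29 (x axis) of each of the 77 members (y axis), large subunit on the left and small subunit on the right. Lines are 95% counting intervals, red marks 27 members called lower, blue the 1 called higher (MRPL55), grey the rest, open squares members that share a locus, and dotted lines 1.5-fold.

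The lowest large subunit members included MRPL27, MRPL12 and MRPL35. MRPL27, which lies near the site of peptide bond formation in bacterial ribosomes, had 24.9 CPM (51 fragments) in the HT-29 control and 9.16 CPM (22 fragments) with SCS, a log2 fold change of -1.33 (-2.24 to -0.70). Its 2 NCM460 libraries stood at 24.4 and 32.4 CPM, so the SCS-treated HT-29 library was the low one of the 4. MRPL12, of the L7/L12 stalk that recruits translation factors, went from 56.7 to 22.9 CPM (log2 fold change -1.26, -1.80 to -0.83) in a locus it shares with SLC25A10. MRPL35 went from 22.5 to 9.16 CPM (-1.19, -2.10 to -0.53).

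In the small subunit, the lowest were MRPS22, MRPS34 and MRPS9. MRPS22, a mitochondria-specific protein whose inherited defects impair respiration, had 27.4 CPM in the control and 11.2 CPM with SCS (log2 fold change -1.20, -2.00 to -0.60). MRPS34, the member with the highest mean FPKM of its subunit, went from 52.3 to 22.9 CPM (-1.15, -1.69 to -0.71). MRPS9, the counterpart of bacterial S9, went from 13.2 to 6.66 CPM (-0.87, -1.98 to -0.04). All 3 were called lower, MRPS9 with an interval that ends close to 0.

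Against this direction, MRPL55 was the member called higher. This protein of the large subunit had 12.7 CPM (26 fragments) in the control and 24.6 CPM (59 fragments) with SCS. Its log2 fold change was 0.89 (0.26 to 1.68). MRPL2, at the heart of the large subunit, was next with 39.1 and 58.7 CPM (0.57, 0.18 to 1.00), under the 1.5-fold limit and in a locus shared with CUL7, and its deposited FPKM were 17.95 and 17.4. MRPL41 had 14.2 and 21.6 CPM (0.57, -0.07 to 1.32). In the small subunit MRPS18C, MRPS10 and MRPS15 had log2 fold changes of 0.59, 0.41 and 0.33, each with an interval that includes 0.

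The stalk members differed among themselves. MRPL12 and MRPL11 were called lower in HT-29 with SCS, MRPL11 from 21.0 to 10.4 CPM (-0.93, -1.79 to -0.27). MRPL10, which anchors the stalk, had 16.1 and 22.1 CPM (0.42, -0.20 to 1.12). The 3 proteins named MRPS18, related variants of bacterial S18, differed too. MRPS18A, which structures place in the large subunit, went from 19.1 to 9.99 CPM and was called lower (-0.85, -1.73 to -0.16), MRPS18B had 24.4 and 21.6 CPM (-0.17, -0.76 to 0.41), and MRPS18C had 5.38 and 8.74 CPM (0.59, with an interval that includes 0).

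Summed over members, the share of nuclear fragments was 0.421% (0.408% to 0.433%) in the HT-29 control and 0.291% (0.282% to 0.2998%) with SCS. The large subunit went from 0.227% to 0.153% and the small subunit from 0.193% to 0.138%, and the intervals of the libraries did not overlap in either. As a share of all fragments, mitochondrial genome included, the members had 0.270% and 0.251%. The mitochondrial genome held 35.8% and 13.8% of fragments in the same 2 libraries, and its part in the result was not tested. With libraries scaled by total fragments alone, the members' median was -0.16 and that of all loci 0.31, a gap of -0.47 between them, against -0.49 with TMM factors. The gap stayed between -0.52 and -0.42 under every alternative tried. The 60 members with a locus of their own had a median of -0.41, with 21 called lower and 1 higher.

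**Figure D2:**
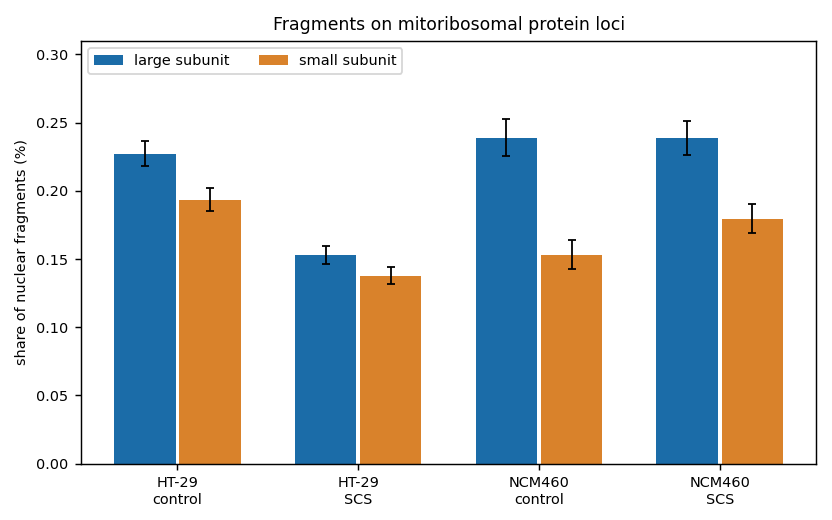
Share of nuclear fragments (y axis, percent) on large and small subunit loci in each of the 4 libraries (x axis), with 95% counting intervals. The large subunit stood at 0.227% and 0.153% in HT-29 without and with SCS, and at 0.239% in both NCM460 libraries.

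Transcript base composition did not follow the HT-29 values of the members. The Spearman correlation between GC content and log2 fold change was 0.03 over the 77 members and -0.13 over all loci. When the members were split by GC content into groups of 26, 25 and 26, each group had 9 members called lower, and the medians were -0.36, -0.48 and -0.36 from low to high GC. With the GC trend of all loci subtracted, 27 members were called lower and 2 higher, beside 16% and 14.5% of all loci, with a median of -0.45. Transcript length and level had Spearman correlations of -0.07 and -0.04 with the log2 fold change over the members. At the depth of the smallest library, 507692 nuclear fragments, 11 of 76 members tested were called lower (14.5%) beside 11.4% of all loci, while the median was -0.39 and 59 members were below 0.

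The second comparison asks the same in NCM460. Here the members had no common direction. Their median log2 fold change was 0.11 (-0.31 to 0.35), against 0.03 over 12657 loci tested, and 40 members were above and 37 below 0. Of the members, 12 were called higher (15.6%) beside 15.4% of all loci, and 11 lower (14.3%) beside 13.8% of all loci. Both shares were close to the background. The large subunit had 5 called higher and 8 lower with a median of -0.19, and the small subunit 7 higher and 3 lower with a median of 0.27. All members held 0.392% (0.375% to 0.410%) of nuclear fragments in the control and 0.418% (0.402% to 0.434%) with SCS, with intervals that overlap, while the small subunit had 0.153% (0.142% to 0.164%) and 0.179% (0.169% to 0.190%).

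In this line, the values followed base composition. The Spearman correlation of GC content with log2 fold change was -0.69 over the 77 members and -0.63 over all loci. The 26 members of lowest GC content had a median of 0.62 with 7 called higher and none lower, and the 26 of highest GC content a median of -0.58 with 1 higher and 10 lower. Transcript length and level had Spearman correlations of 0.21 and -0.39 with the log2 fold change over the members, and of 0.19 and -0.14 over all loci. Depth and the mitochondrial share differed between the 2 libraries as well, as given above, and the part of each was not tested. After the GC trend of all loci was subtracted, the median was -0.04, with 7 called higher and 2 lower, beside 5.66% and 5.98% of all loci. One of those 2, MRPL39, rests on 4 and 1 fragments.

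**Figure D3:**
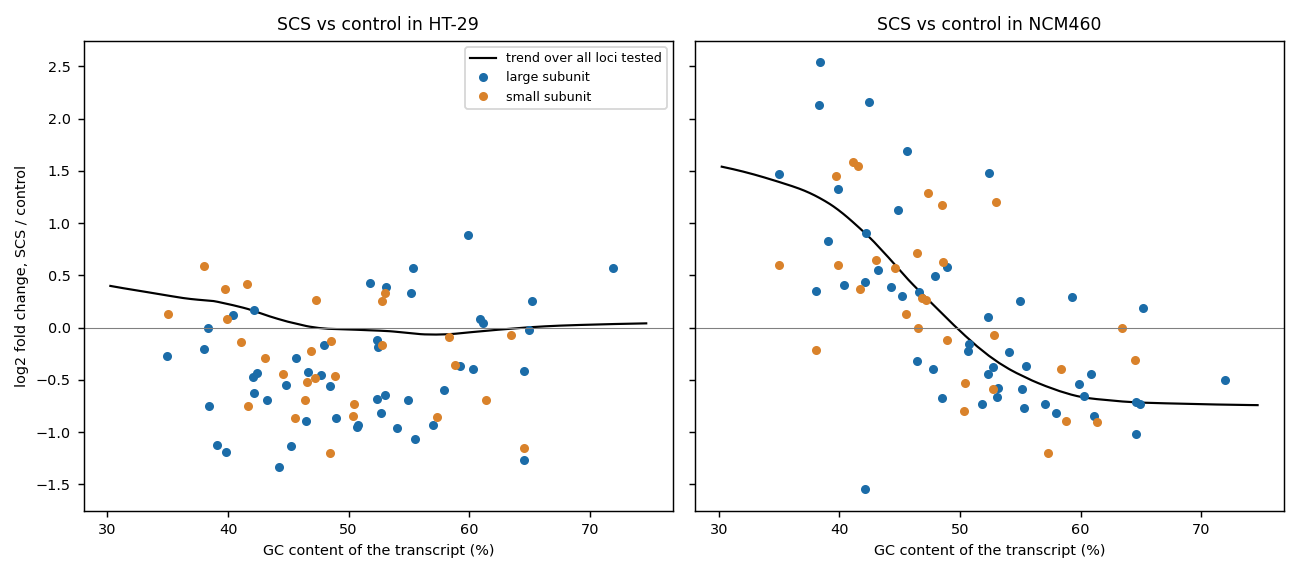
Log2 fold change with SCS (y axis) against transcript GC content (x axis, percent) for large and small subunit members in HT-29 (left) and NCM460 (right), with the smoothed trend of all loci tested. The members follow the trend in NCM460 (Spearman correlation -0.69) and show no such slope in HT-29 (0.03).

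The highest large subunit members in NCM460 were MRPL42, MRPL3 and MRPL19. MRPL42 had 6.42 CPM (5 fragments) in the control and 43.5 CPM (47 fragments) with SCS, a log2 fold change of 2.54 (1.44 to 4.45), in a locus shared with the small RNA pseudogene RN7SL737P. MRPL3, which in bacteria helps to shape the catalytic centre, had 15.4 and 73.0 CPM (2.16, 1.36 to 3.26). MRPL19, at the interface of the subunits, had 5.14 and 26.8 CPM (2.13, 0.87 to 4.35). For all 3 the control library was the low one of the 4, and HT-29 stood at 21.2 to 73.3 CPM. With the GC trend subtracted, MRPL42 and MRPL3 were still called higher, at 1.30 and 1.29, and MRPL19 was not, at 0.89. The lowest were MRPL38 (103 and 49.9 CPM, log2 fold change -1.02), which shares its locus with FBF1, MRPL23 (35.95 and 19.4 CPM, -0.85) and MRPL21 (27.0 and 14.8 CPM, -0.81, interval -1.901 to 0.14).

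In the small subunit, MRPS35 went from 8.99 to 29.6 CPM (1.59, 0.51 to 3.14) and MRPS10, at the mRNA entry side of the head, from 8.99 to 28.7 CPM (1.55, 0.46 to 3.10). Neither was called with the GC trend subtracted, both at 0.58. MRPS17, in a locus shared with GBAS, went from 16.7 to 42.5 CPM (1.29) and stayed called at 1.01. At the other end, MRPS18A went from 46.2 to 19.4 CPM (-1.20, -2.10 to -0.44), MRPS2 from 96.3 to 50.9 CPM (-0.90, -1.45 to -0.40) and MRPS24, in a locus shared with URGCP, from 83.5 to 44.4 CPM (-0.89, -1.48 to -0.35). All 3 were called lower, and none was with the GC trend subtracted, at -0.63, -0.22 and -0.26.

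Side by side, 34 members were called in neither line and none was called higher in both. The patterns across lines were not counted over all loci, so these counts have no background beside them. Singly, 16.8% of all loci were called higher and 14.8% lower in HT-29, and 15.4% and 13.8% in NCM460. MRPL12, MRPL37, MRPL43, MRPS2 and MRPS18A were called lower in both. MRPL37 went from 49.4 to 31.2 CPM in HT-29 and from 109 to 68.4 CPM in NCM460, and MRPL43 from 24.9 to 12.5 CPM and from 57.8 to 34.2 CPM. Once the GC trend was subtracted, none of the 5 was called in NCM460, and all 5 were in HT-29. MRPS22, MRPS30 and MRPL42 were called lower in HT-29 and higher in NCM460. MRPS30, which structures place in the large subunit, went from 64.5 to 39.5 CPM in HT-29 (-0.69, -1.10 to -0.32) and from 33.4 to 55.5 CPM in NCM460 (0.71, 0.05 to 1.46). MRPS22 went from 11.6 to 27.7 CPM in NCM460 (1.18, 0.15 to 2.52) and was still called higher there with the GC trend subtracted (1.04). Of the 77 members, 26 were below 0 in both lines, 8 above 0 in both, 32 below 0 in HT-29 and above 0 in NCM460, and 11 the reverse.

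**Figure D4:**
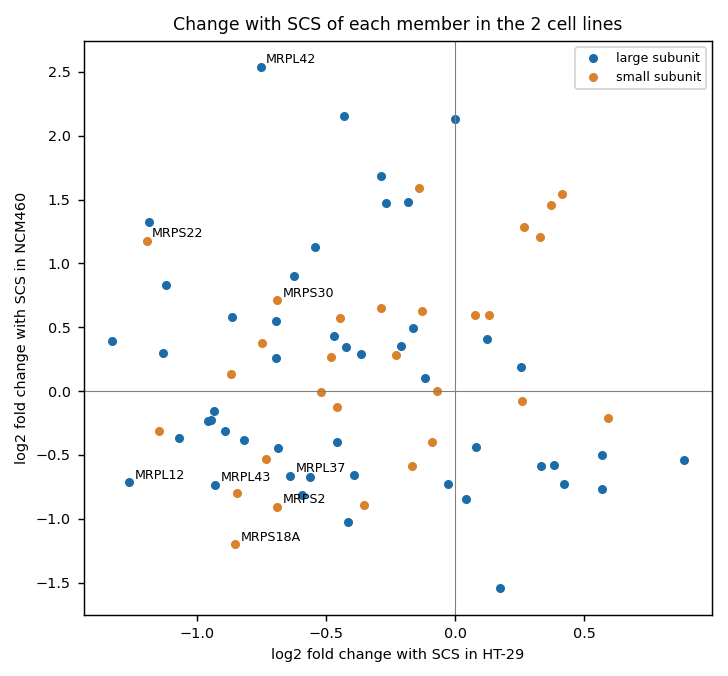
Log2 fold change with SCS in HT-29 (x axis) and in NCM460 (y axis) of each member, large subunit in blue and small subunit in orange. Named points are the 5 members called lower in both lines and the 3 called lower in HT-29 and higher in NCM460.

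Related gene lists give the setting for the HT-29 result, where 16.8% of all loci were called higher and 14.8% lower. The 81 cytosolic ribosomal protein loci, the other translation machine of the cell, had a median log2 fold change of 0.12 in HT-29 with SCS, and 2 were called in each direction. Their share of nuclear fragments was 5.56% in the control and 5.39% with SCS. Of 79 loci tested for nuclear-encoded respiratory chain subunits, which join the products of the mitochondrial ribosome, 24 were called lower and 2 higher, with a median of -0.35. In NCM460 the cytosolic ribosomal proteins had a median of 0.39 with 26 called higher and 5 lower, and the respiratory chain a median of 0.04 with 15 higher and 4 lower, beside 15.4% and 13.8% of all loci. After subtraction of the GC trend, 18 and 2 were called in the first list and 8 and 8 in the second, beside 5.66% and 5.98% of all loci.

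**Figure D5:**
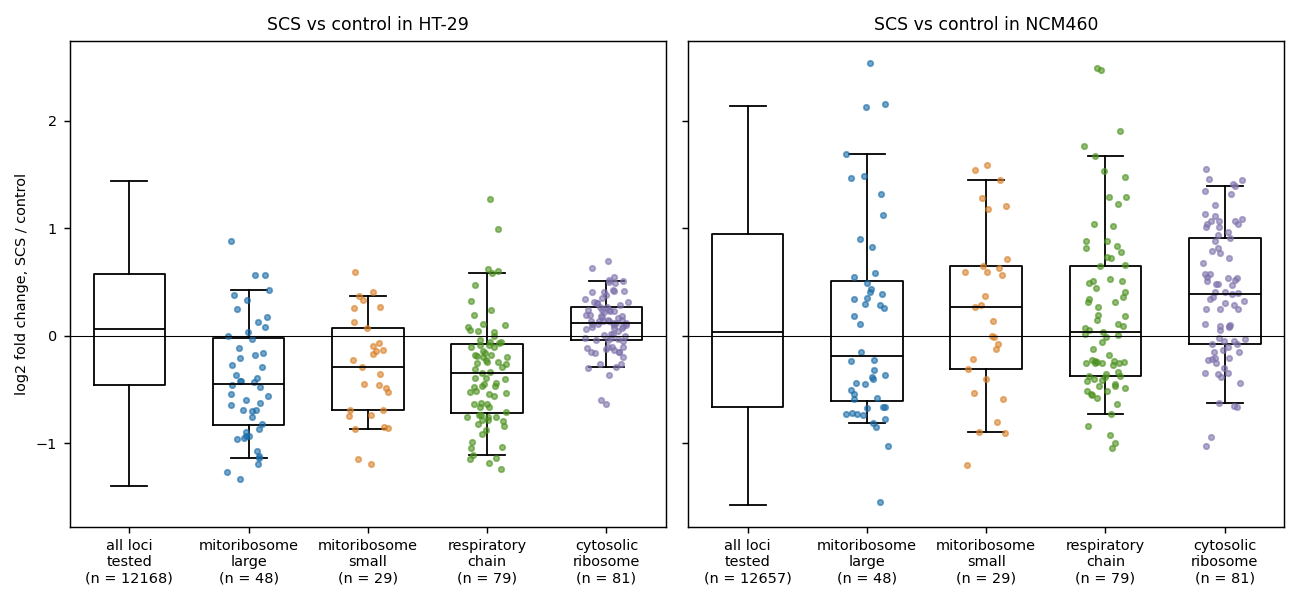
Log2 fold change with SCS (y axis) in HT-29 (left) and NCM460 (right) for all loci tested and for 4 gene lists (x axis). Boxes show quartiles and whiskers the 5th to 95th percentile, points are loci, and in HT-29 both mitoribosome subunits (medians -0.44 and -0.29) and the respiratory chain (-0.35) lie below the cytosolic ribosome (0.12).

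A further 6 subunits of the mitochondrial ribosome do not carry an MRP symbol in the table, and all were below 0 in HT-29 with a median of -0.64. ICT1, a subunit that can release stalled peptides, had 30 and 14 fragments (log2 fold change -1.17, -2.36 to -0.37), and GADD45GIP1, another large subunit protein, 67 and 46 (-0.74, -1.35 to -0.21), and these 2 were called lower. The highest of the 6 was AURKAIP1, a small subunit protein, at -0.17. In NCM460, GADD45GIP1 was called lower at -1.30 (122 and 68 fragments) and PTCD3, which binds mRNA at the small subunit, was highest at 0.67 (-0.21 to 1.69), but at -0.12 with the GC trend subtracted.

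Genes that serve the mitochondrial ribosome without being part of it had mixed values in HT-29. Their counts stand beside 16.8% of all loci called higher and 14.8% called lower in that line. The 12 translation factors had a median of 0.10 with 1 called in each direction. TUFM, the elongation factor that delivers tRNA, was lower (309 and 199 fragments, log2 fold change -0.86, -1.13 to -0.61, in a locus with a second gene), and GUF1, a GTPase of elongation, higher (31 and 66 fragments, 0.81, 0.22 to 1.52), though not with the GC trend subtracted (0.58). The 22 assembly and rRNA modification genes had a median of 0.03, with 3 called higher and 4 lower. ERAL1, a chaperone of the small subunit rRNA, was lowest (51 and 19 fragments, -1.51, -2.50 to -0.87). GTPBP10, a GTPase of large subunit assembly, was highest (122 and 343 fragments, 1.24) in a locus that holds 5 genes. The 8 genes of mitochondrial transcription and RNA stability had 3 called lower and a median of -0.27. TFAM, which packages mitochondrial DNA, was called lower (76 and 46 fragments, -0.91, -1.52 to -0.41). TEFM was called lower on only 7 and 1 fragments. SLIRP, in a locus of 2 genes, was called lower on 24 and 14 fragments, with an interval that ended at -0.00037. With the GC trend subtracted, SLIRP was not called. LRPPRC, a stabilizer of mitochondrial mRNAs, was at 0.06. In NCM460 these 3 lists had medians of 0.52, 0.10 and 0.96, and of -0.13, -0.03 and 0.14 with the GC trend subtracted. Among their genes with at least 30 fragments, the lowest were TUFM (-0.76), RPUSD4 (-1.08), an rRNA-modifying enzyme in a locus of 2 genes, and POLG (-0.80), the mitochondrial DNA polymerase, and the highest MRRF (0.58), a ribosome recycling factor, GTPBP10 (1.68) and LRPPRC (1.48). Of these, RPUSD4 and LRPPRC stayed called when the GC trend was subtracted, while TUFM, POLG and GTPBP10 did not (-0.18, -0.15 and 0.58), and MRRF, which was not called, stood at -0.08.

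The remaining comparisons set HT-29 against NCM460, and they use the same 4 libraries as the SCS comparisons. Without SCS, members were called in both directions. The median log2 fold change of HT-29 over NCM460 was -0.13, against 0.10 over 12691 loci, with 14 members called higher (18.2%, beside 25.3% of all loci) and 19 lower (24.7%, beside 23.1%). The Spearman correlation with GC content was -0.65 over the members. After subtraction of the GC trend, 8 were called higher and 17 lower, beside 18.5% and 19% of all loci.

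Among large subunit members without SCS, MRPL35, MRPL32 and MRPL42 were highest in HT-29, at log2 fold changes of 2.63, 2.41 and 2.30, against 2, 2 and 5 fragments in the NCM460 control. MRPL10 was lowest, with 16.1 CPM in HT-29 and 83.5 CPM in NCM460 (-2.28, -3.02 to -1.75), followed by MRPL4, which lines the peptide exit tunnel in bacteria (16.1 and 74.5 CPM, -2.12), and MRPL38 (25.4 and 103 CPM, -1.96). All 3 were also called lower with the GC trend subtracted, whereas MRPL35 and MRPL42 were then not called. In the small subunit, MRPS35 (53.8 and 8.99 CPM, 2.42), MRPS6 (185 and 42.4 CPM, 2.10) and MRPS10 (26.9 and 8.99 CPM, 1.46) were highest, and MRPS6 shares its locus with SLC5A3. MRPS2 (-1.40), MRPS18B (-1.26) and MRPS18A (-1.22) were lowest. Their transcripts had 61.4%, 52.7% and 57.3% GC, against 41.1%, 48.9% and 41.6% in MRPS35, MRPS6 and MRPS10. The part of base composition in these values was not tested.

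With SCS in both lines, members were mostly lower in HT-29. The median was -0.48, against 0.05 over 13050 loci, with 29 members called lower (37.7%, beside 22.4% of all loci) and 4 higher (5.19%, beside 24.2%). With the GC trend subtracted, 31 were called lower and 3 higher, beside 23% and 23.2% of all loci. MRPL11 was lowest, with 10.4 CPM in HT-29 and 51.8 CPM in NCM460 (-2.18, -3.06 to -1.61), followed in the large subunit by MRPL24 (12.5 and 50.9 CPM, -1.92) and MRPL52 (6.66 and 24.97 CPM, -1.73). In the small subunit MRPS34 (22.9 and 79.5 CPM, -1.74), MRPS9 (-1.51) and MRPS23 (-1.36) were lowest, MRPS23 in a shared locus. The highest were MRPL55 (24.6 and 10.2 CPM, 1.17), MRPL49 (50.8 and 30.5 CPM, 0.71) and MRPL32 (0.43) in the large subunit. Among members named for the small subunit, MRPS6 (1.76), MRPS35 (0.70) and MRPS36 (0.64) were highest.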

How the data were processed

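RNA of HT-29 and NCM460 cultures was sequenced by the authors as paired ends, 1 library per condition. The submitters' processing notes list bcl2fastq 2.17.1.14, cutadapt 1.9.1, Bowtie2, HTSeq 0.6.1 and hg19, the study's methods name Cuffdiff, and the table's coordinates are those of GRCh38, so the tool behind the table is not given in the sources used here. The deposited count columns are a signal, read pairs per gene that the authors had divided by 1 size factor per library. After that factor was undone, 99.8% to 99.9% of values above 0 were whole within 0.05. The FPKM values deposited by the authors served for levels per length. The 26 rows without a gene name (at most 0.0352% of fragments) were left out, and rows with identical values at one locus were merged, so that 1812 loci hold several genes.

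With no replicates, no test could be fitted within a line. TMM factors (edgeR 4.0.16, R 4.3.3) ran from 0.578 to 1.50. Log2 fold changes used CPM with 2 counts added, over loci whose mean reached 1 CPM, and their intervals came from the exact Clopper-Pearson method (scipy 1.17.1). Depth was 1156568 to 1654764 fragments, so that 3 fragments, the limit that a count of 0 allows, were 1.25 to 3.85 CPM. GC content and length are those of the longest protein-coding GENCODE release 29 transcript, and the GC trend is a lowess fit with a span of 0.3 (statsmodels 0.14.6). Table coordinates of 73 members were identical to that release.

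Named are, per comparison and subunit, the 3 highest and 3 lowest members with at least 30 fragments, the 3 highest and 3 lowest by mean FPKM, those called in both lines, those at 3 fragments or fewer, the MRPS18 proteins, the stalk, and the extremes of each related list, also at 30 fragments or more. GADD45GIP1, TEFM and SLIRP in HT-29, MRPL46, MRPS11 by neighbourhood and the members shown by sequence were chosen after their values or letters were seen. The members and lists were chosen with earlier results of these data known. Code was tested on simulated data. Alternatives were other scalings (DESeq2 1.42.0 among them), another prior and filters, equal depth, GC content, shared loci, the subunit of MRPS18A and MRPS30, and FPKM.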

Additional observations from a re-analysis of the deposited data

Results flagged for a closer look

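With SCS, 3 members were called lower in HT-29 and higher in NCM460, which is why they are listed here. Loci with such opposite calls were not counted over all loci. The difference between the lines has no replicate check and was not tested, and its interval covers counting error only. MRPL42 differed by 3.29 on the log2 scale between NCM460 and HT-29 (interval 2.07 to 5.31), with -0.75 in HT-29 and 2.54 in NCM460, in a locus it shares with RN7SL737P and with 5 fragments in the NCM460 control. MRPS22 differed by 2.37 (1.19 to 3.98), with -1.20 and 1.18. MRPS30 differed by 1.40 (0.63 to 2.27), with -0.69 and 0.71. With the GC trend subtracted, the differences were 2.32, 2.22 and 1.04, and MRPS30 was no longer called in NCM460.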

How the results depend on the processing

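Member counts, medians and fold changes were recomputed under 11 alternatives. The HT-29 medians of both subunits stayed below 0 in all of them. With libraries scaled by total fragments alone, 7 members were called higher and 11 lower in HT-29 (medians -0.18 large, -0.019 small), 29 and 0 in NCM460 (0.47 and 0.89), 40 and 4 between lines without SCS (0.97 and 0.89), and 14 and 13 with SCS (large 0.24). All loci shifted likewise, with 24.9% higher and 8.81% lower in HT-29 and 32.6% and 2.05% in NCM460. Between lines, the shares of all loci were 50.7% and 8.87% without SCS and 40.0% and 12.3% with SCS. Under that scaling the sign of called members turned for MRPL37 in NCM460 (0.020), for MRPL23 (0.30), MRPL24 (0.081), MRPS27 (0.28), MRPS34 (0.17) and MRPS7 (0.28) between lines without SCS, and for MRPL17 with SCS (0.0249). With the GC trend subtracted, 2 were called higher in HT-29, 7 higher and 2 lower in NCM460, and 8 higher between lines without SCS, and MRPS28 in NCM460 (-0.15), MRPL23 (0.13) and MRPS34 (0.14) between lines turned sign. At equal depth, 0 were called higher and 11 lower in HT-29, beside 10.2% and 11.4% of all loci. Between lines with SCS, 1 was called higher, beside 16.1% of all loci. Scaling by nuclear fragments gave 5 lower in NCM460, beside 9.48% of all loci. Leaving out shared loci, which removes members, gave 7, beside 13.8% of all loci. By deposited FPKM, called past the fold only, 3 were higher in HT-29, 20 higher and 32 lower in NCM460 (medians -0.50 and -0.34; MRPS28 at -0.043), 36 lower between lines without SCS (small -0.57) and 51 with SCS (large -0.98), beside 25.2% and 41.4% of all loci in NCM460 and 46.2% and 43.3% lower between lines. Of all loci in HT-29, 22.2% were higher by FPKM. Where not stated, the cause was not tested. Of the 28 members called in HT-29, MRPL12, MRPL14, MRPL20, MRPL48 and MRPS34 were called under every alternative that kept them, FPKM not counted. MRPL12 shares its locus with SLC25A10 and MRPL20 with RN7SL657P. The labels give no replicate numbers, and a fit of SCS over both lines with line as a block was not run.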
